A study of Mus musculus with 9 samples.

Results

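Integrins and the adhesion molecules that work with them were examined in bone marrow-derived macrophages (BMDMs), primary mouse macrophages that develop from marrow cells in the presence of the growth factor CSF1. The set was given as a list of gene names, 41 of the 53465 genes in the count table: 21 integrin chains, 13 adaptors, kinases and scaffolds that sit under integrins, and 7 adhesion molecules of the immunoglobulin and selectin-ligand kind. Where a symbol stood on more than 1 row, the row with most reads was kept, which applied to Itgam. The cells came from male wild-type C57BL/6 mice (of the J substrain, by the study's methods), were grown with CSF1 at 50 ng/ml in every group, and were left untreated (UNX, 3 libraries) or treated with medium conditioned by calf pulmonary artery adventitial fibroblasts. CO-CM (3 libraries) came from fibroblasts of age-matched control neonatal calves and PH-CM (3 libraries) from fibroblasts of calves with hypoxia-induced pulmonary hypertension. The labels disagree on the length of treatment, which is 16 h in the growth protocol and 24 h in the treatment protocol, and the study's methods give a length between these. Each medium was pooled from several fibroblast populations, so the libraries of a group repeat the macrophage culture and not the calf, and the p-values measure the spread between these cultures. The untreated cells received no fibroblast medium, so CO-CM and PH-CM each differ from UNX by bovine conditioned medium as a whole. PH-CM against CO-CM compares pooled media whose fibroblasts differ in disease state. Other differences between the pools cannot be told apart from it.

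Integrins are surface receptors made of an α chain and a β chain. The pair decides the ligand: collagen and laminin, proteins with an RGD motif such as fibronectin and vitronectin, or, for the leukocyte integrins built on β2, the ICAM proteins of other cells and complement fragments. Talin and the kindlins bind the β tail and switch the receptor on, and paxillin, vinculin, focal adhesion kinase and the Cas scaffolds pass the signal to the cytoskeleton. In macrophages these receptors serve arrest on vessel walls, crawling, podosome formation and the uptake of opsonized particles.

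Between 62017933 and 84314201 reads were counted per library, and mates of a pair were counted singly by the stated options of the counting tool. Of the counts under 20, 81.4% to 83.8% were even. All 9 macrophage markers checked passed the filter on low counts, with a summed level of 12300 to 13100 CPM (counts scaled to a common library size) in UNX, 19500 to 20500 in CO-CM and 22100 to 23900 in PH-CM. The largest part was Lyz2, at 6850 to 7560 CPM in UNX, 12500 to 13000 in CO-CM and 14500 to 15700 in PH-CM. Against the sum, Cd14 was lower in CO-CM (158 to 189 CPM) than in UNX (287 to 335), and so was C1qa (146 to 168 against 268 to 288). No T cell, B cell or dendritic cell marker passed it, and 1 marker each of neutrophils (S100a8, 0.901 to 1.00 CPM in UNX and 2.21 to 2.91 in the media), mast cells (Kit, 1.54 to 3.31 in UNX, 1.73 to 2.33 in CO-CM and 0.258 to 0.317 in PH-CM) and megakaryocytes (Pf4) did. Libraries with the same replicate number deviated from their group means together (r from 0.276 to 0.484), and replicate 1 was the lowest library of each group for Itgax.

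Of the 41 members, 33 had a CPM above 1 in at least 3 libraries and were tested with edgeR's quasi-likelihood test over all 11950 genes that passed. Levels below are CPM scaled by TMM factors, given as replicates 1, 2 and 3 of a group, and a gene was called when its false discovery rate (FDR) did not exceed 0.05 and it differed 1.2-fold or more. Against UNX, PH-CM gave 15 members higher and 11 lower, beside 31.3% of all genes tested called higher and 31.7% called lower, and the other 7 were not called. CO-CM gave 10 higher and 8 lower against UNX, beside backgrounds of 28% and 28.9%. PH-CM against CO-CM gave 12 higher and 7 lower, beside 12.2% and 15%. The median log2 fold change of the members was 0.14, -0.11 and 0.19 in these comparisons, beside 0.007, 0 and -0.006 over all genes. At a fold change of 2 or more, 4 members were higher and 5 lower in PH-CM than in UNX (8.22% and 9.8% of all genes), 3 higher and 4 lower in CO-CM (6% and 7.85%), and 5 higher and 3 lower in PH-CM than in CO-CM (2.81% and 2.31%). Itga1, Pecam1 and Vcam1 reached the filter only with the help of the PH-CM libraries, so they had to be high there to be tested, and the counts describe the set and support nothing by themselves. The PH-CM and CO-CM comparisons with UNX share the UNX libraries.

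**Figure D1:**
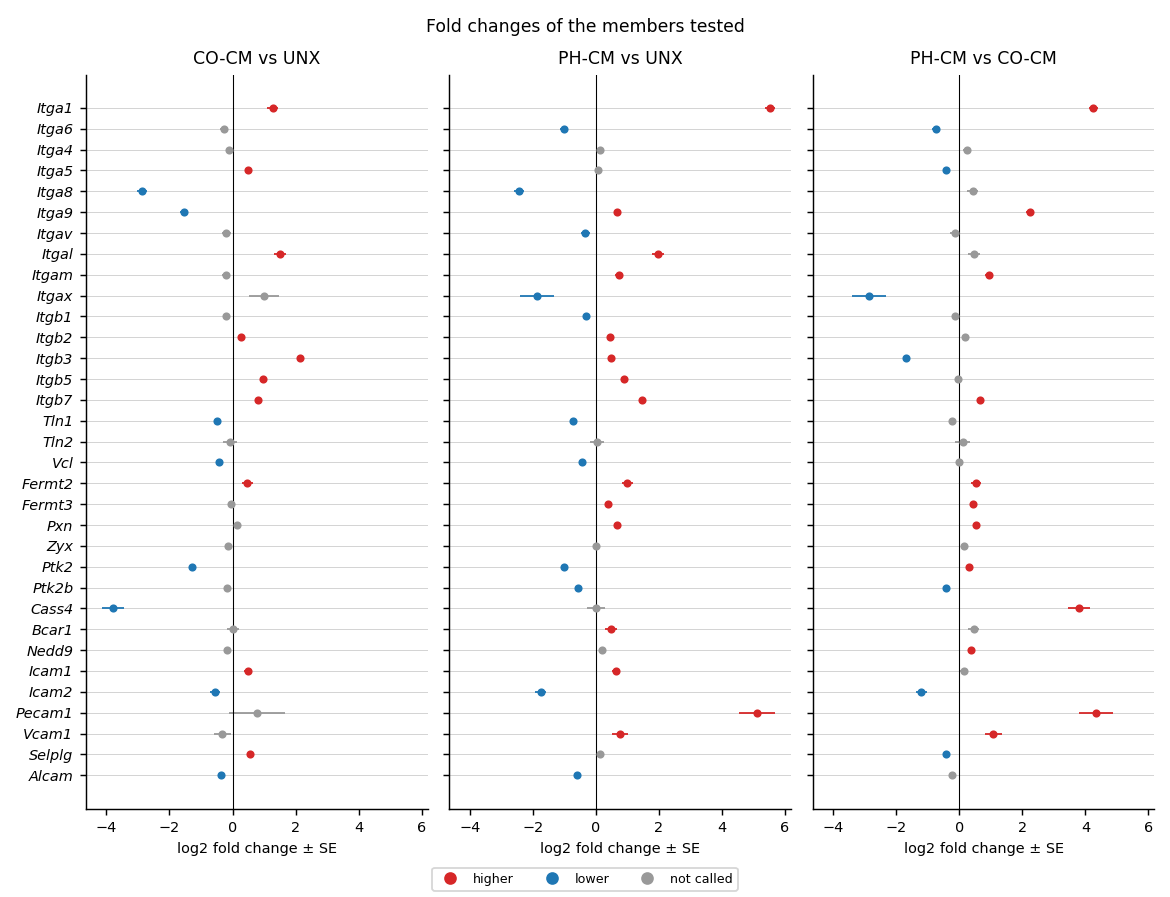
Log2 fold change with its standard error (horizontal axis) of each tested member (rows, ordered by role) for CO-CM against UNX, PH-CM against UNX and PH-CM against CO-CM, coloured by whether the gene was called higher, lower or neither. Itga1 and Pecam1 lie furthest to the right under PH-CM, Cass4 furthest to the left under CO-CM, and Itga9 lies on opposite sides of 0 in the 2 media.

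Levels of different chains can be compared only per length, for which the deposited RPKM values (reads scaled by exon length and library size) were used. The β chains Itgb2 (342 ± 36.0 RPKM in UNX, SD, n = 3) and Itgb1 (245 ± 9.16) were the highest, followed by Itgb5 (72.2 ± 2.57) and Itgb7 (22.3 ± 1.51). Among α chains in UNX, Itga5 (41.4 ± 4.62) and Itga6 (34.1 ± 6.45) had the highest RPKM and did not differ beyond their spread, and Itgam (21.8 ± 1.68), Itgav (13.6 ± 3.28) and Itga4 (13.4 ± 1.68) followed. The level of Itgam is understated, because 68.7% of its exon bases also belong to the overlapping gene Gm49368, and reads that fall on exons of both genes are dropped by the counting tool's default setting, so its rank among the α chains cannot be read from these values. Itga2, Itga3, Itga7, Itgad, Itgae and Itgb8 were all below 1 CPM in each of the 9 libraries. Per length, Itga1 was also among the lowest chains outside PH-CM, at 0.0224 RPKM in UNX and 0.0520 in CO-CM.

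**Figure D2:**
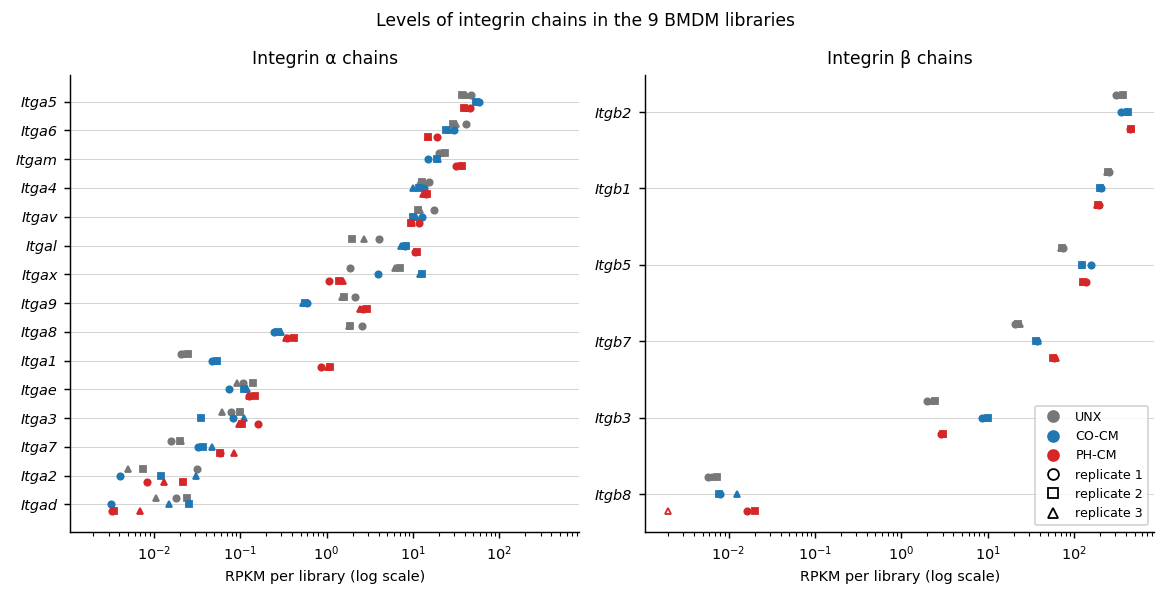
RPKM on a log scale (horizontal axis) of the integrin α chains and β chains (rows) in each of the 9 libraries, with colour for the group and symbol for the replicate; the open symbol of Itgb8 marks a PH-CM library at 0, drawn at the axis edge. Among chains with reads in every library, Itga1 spans the widest distance, from 0.0208 RPKM in a UNX library to 1.10 in a PH-CM library.

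Among the collagen and laminin receptor chains, Itga1 rose and Itga6 fell under PH-CM. Itga1, the α1 chain of a collagen receptor, lies at chr13:114953096-115101964 on the minus strand (GRCm38). It had 24, 34 and 34 reads in UNX (0.370, 0.451 and 0.396 CPM), 60, 70 and 74 reads in CO-CM (0.878, 1.05 and 1.04 CPM) and 1084, 1296 and 1232 reads in PH-CM (16.1, 20.9 and 19.5 CPM). The 3 groups did not overlap, and the PH-CM libraries stood apart from the other 6. The log2 fold change was 5.53 ± 0.15 (SE; 46.1-fold, FDR 1.28e-09) for PH-CM against UNX, 1.28 ± 0.17 (2.43-fold, FDR 8.16e-05) for CO-CM against UNX and 4.25 ± 0.13 (19-fold, FDR 2.43e-08) for PH-CM against CO-CM. In bulk RNA, fewer cells of a type and less RNA per cell cannot be told apart, here and below. Per length Itga1 remained a minor chain, at 0.999 ± 0.116 RPKM in PH-CM.

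Itga6, the α6 chain of laminin receptors, had 357, 257 and 282 CPM in UNX, 268, 227 and 242 in CO-CM and 171, 136 and 136 in PH-CM. All PH-CM libraries lay below all UNX and CO-CM libraries, while UNX and CO-CM overlapped. Itga6 was lower by a log2 fold change of -1.02 ± 0.13 (FDR 3.54e-05) for PH-CM against UNX and -0.73 ± 0.13 (FDR 0.00122) against CO-CM. For CO-CM against UNX it was -0.28 ± 0.13 (FDR 0.067), and with the replicate block -0.27 (FDR 0.000284), which passes. It also passed without UNX replicate 2 (-0.39, FDR 0.0193), CO-CM replicate 1 (-0.35, FDR 0.0471) or PH-CM replicate 1 (-0.295, FDR 0.038). The other laminin and collagen chains were too low to test. Itga7 had 8, 12 and 14 reads in UNX, 18, 21 and 28 in CO-CM and 32, 30 and 44 in PH-CM, and the groups did not overlap. In a fit without the filter it was called higher in PH-CM (log2 fold change 1.83, FDR 0.000212) and in CO-CM (1.07, FDR 0.0449) against UNX. Itga2 (2 to 16 reads a library) and Itga3 (14 to 62 reads) were not called in that fit.

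Of the 5 chains that bind RGD proteins, VCAM1 or tenascin, 1 was higher and 2 were lower in each medium against UNX, beside the backgrounds of 31.3% and 31.7% for PH-CM and of 28% and 28.9% for CO-CM. Itga8, which binds RGD ligands such as nephronectin, had 18.2, 13.6 and 13.2 CPM in UNX, 1.80, 2.10 and 2.25 in CO-CM and 2.56, 3.16 and 2.52 in PH-CM. Both media lay far below UNX and the 2 did not overlap each other. It fell by 2.87 ± 0.16 on the log2 scale under CO-CM (FDR 1.13e-07) and fell by 2.45 ± 0.15 under PH-CM (FDR 1.94e-07). The difference between the media, 0.42 ± 0.16, was not called (FDR 0.068), but was by the edgeR exact test (FDR 0.0467) and without UNX replicate 1 (FDR 0.0271).

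Itga9, whose product with β1 binds tenascin C and VCAM1, went in opposite directions in the media. It had 15.8, 11.9 and 11.3 CPM in UNX, 4.56, 4.46 and 4.25 in CO-CM and 19.99, 23.0 and 19.3 in PH-CM, with no overlap between any groups. The log2 fold change was -1.55 ± 0.13 for CO-CM (FDR 2.35e-06) and 0.68 ± 0.12 for PH-CM (FDR 0.000446) against UNX, and 2.23 ± 0.13 for PH-CM against CO-CM (FDR 1e-06). The direct comparison of the media thus carried the largest change of the 3.

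Itga5, the α chain of the main fibronectin receptor, was higher in CO-CM (261, 248 and 242 CPM) than in UNX (197, 162 and 177) or PH-CM (201, 177 and 185). Its log2 fold change was 0.48 ± 0.07 for CO-CM against UNX (FDR 0.000168) and -0.41 ± 0.07 for PH-CM against CO-CM (FDR 0.00139), and PH-CM and UNX overlapped (0.07 ± 0.07, FDR 0.4). Itga4, which pairs with β1 or β7 to bind VCAM1 and fibronectin, was not called in any comparison, with group means of 181 ± 20.2 CPM in UNX, 168 ± 22.3 in CO-CM and 196 ± 9.53 in PH-CM. Without CO-CM replicate 1 it was called higher in PH-CM than in CO-CM (0.315, FDR 0.0338). Itgav, the αv chain that binds vitronectin and latent TGF-β, had 179, 119 and 128 CPM in UNX, 138, 110 and 121 in CO-CM and 125, 103 and 107 in PH-CM, and its groups overlapped. It was just called lower in PH-CM than in UNX (-0.34 ± 0.14, FDR 0.049), and without UNX replicate 1 the value was -0.15 (FDR 0.195). Leaving out CO-CM replicate 2 or 3, or PH-CM replicate 2 or 3, also ended the call, with FDR from 0.0524 to 0.144.

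The leukocyte α chains that pair with β2 are encoded close together on chromosome 7: Itgal at chr7:127296260-127335138, Itgam at chr7:128062640-128118491, Itgax at chr7:128129547-128150657 and Itgad at chr7:128154376-128223816, all on the plus strand. Itgam and its neighbour Itgax went in opposite directions under PH-CM. The 250 bases before their RefSeq starts (GRCm38.p6, plus strand) are given, since these neighbours differed in direction. Capitals mark a PU.1 core (GAGGAAG, 84 bases before the Itgam start) and an AP-1 site (TGANTCA, 56 bases before the Itgax start).
Itgam, chr7:128062390-128062639: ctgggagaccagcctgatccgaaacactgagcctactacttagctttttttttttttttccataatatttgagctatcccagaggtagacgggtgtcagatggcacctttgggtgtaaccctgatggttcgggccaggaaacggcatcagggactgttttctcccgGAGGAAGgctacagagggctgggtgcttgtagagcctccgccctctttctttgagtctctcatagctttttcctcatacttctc
Itgax, chr7:128129300-128129549: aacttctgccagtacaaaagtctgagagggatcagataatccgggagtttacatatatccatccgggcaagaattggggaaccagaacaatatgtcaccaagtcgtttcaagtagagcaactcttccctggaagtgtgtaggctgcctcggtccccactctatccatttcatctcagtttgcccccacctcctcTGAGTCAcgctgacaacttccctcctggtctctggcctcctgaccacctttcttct
Start regions were found for 26 members and searched on both strands for the PU.1 core GAGGAAG and the AP-1 site TGANTCA. They were also searched for a narrow 10-base form of the NF-kB site, and no match overlapped another. The PU.1 core stood in 3 members (Itgav, Itgam and Alcam) and in 10.6% of all 32851 start regions of the same length. The AP-1 site stood in 2 members (Zyx and Itgax) and in 6.75% of regions. The NF-kB form searched stood in 0 members and in 1.41% of regions. Other forms of the NF-kB site were not searched, so these values do not show that members lack one. A match of letters describes the sequence only.

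Itgam, the α chain of the complement receptor Mac-1, had 97.5, 116 and 106 CPM in UNX, 75.7, 100 and 99.5 in CO-CM and 157, 189 and 181 in PH-CM. Every PH-CM library lay above the other 6. Itgam rose by a log2 fold change of 0.72 ± 0.11 (1.65-fold, FDR 0.000159) for PH-CM against UNX and 0.94 ± 0.11 (1.92-fold, FDR 0.000114) against CO-CM. CO-CM against UNX gave -0.21 ± 0.11 (FDR 0.108) with overlapping groups, and scaling by library size alone, which moves the median of all genes by -0.07, gave -0.29 (FDR 0.0247).

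Itgax, the CD11c chain of complement receptor 4, had 8.52, 33.5 and 29.1 CPM in UNX, 19.2, 63.8 and 59.4 in CO-CM and 5.13, 6.78 and 7.65 in PH-CM. Replicate 1 was the lowest library of each group, and all PH-CM libraries still lay below all others. Itgax was lower in PH-CM than in UNX (-1.87 ± 0.53, 3.66-fold, FDR 0.00828) and than in CO-CM (-2.87 ± 0.54, 7.29-fold, FDR 0.002). For CO-CM against UNX the log2 fold change was 1.00 ± 0.49 (FDR 0.0925), not called. Blocking on the replicate number gave 1.01, which was called (FDR 0.000467), and without CO-CM replicate 1 it was 1.37 (FDR 0.0137).

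Itgal, the α chain of LFA-1 that binds ICAM1 and ICAM2, had 25.6, 12.7 and 17.4 CPM in UNX, 52.7, 56.2 and 49.6 in CO-CM and 69.9, 75.0 and 72.9 in PH-CM. No groups overlapped, in the order UNX, CO-CM, PH-CM. Against UNX, its log2 fold change was 1.51 ± 0.19 for CO-CM (2.86-fold, FDR 4.22e-05) and 1.97 ± 0.19 for PH-CM (3.93-fold, FDR 4.8e-06). Between the media it was 0.46 ± 0.18 (FDR 0.0701) without the block and 0.46 (FDR 0.028) with it, and it was called without UNX replicate 1 (FDR 0.00329) or 2 (FDR 0.0113). Itgad (1 to 8 reads a library) and Itgae, the αE chain that pairs with β7 (23 to 48 reads), were too low to test and were not called without the filter.

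Within the summed RPKM of these β2 partners, Itgam made up 73.4 ± 3.49% (SD, n = 3) in UNX, 51.1 ± 4.12% in CO-CM and 73.8 ± 0.917% in PH-CM. Itgal made up 10.1 ± 4.85% in UNX, 23.0 ± 5.76% in CO-CM and 23.4 ± 1.18% in PH-CM. The Itgax share was 7.07%, 21.8% and 20.3% in UNX, 14.7%, 31.8% and 31.1% in CO-CM and 2.48%, 2.80% and 3.27% in PH-CM. With exon length that no other gene shares, added as an alternative after seeing the data, the Itgam share became 89.8%, 76.8% and 90.0% in UNX, CO-CM and PH-CM, the Itgax share 6.34%, 12.3% and 1.09%, and the Itgal share 3.86%, 10.8% and 8.94%. An exact two-sided permutation test of 3 against 3 libraries cannot go below p = 0.1. Of 30 share comparisons, α and β chains together, 18 reached that value, and the lowest Benjamini-Hochberg value was 0.167.

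**Figure D3:**
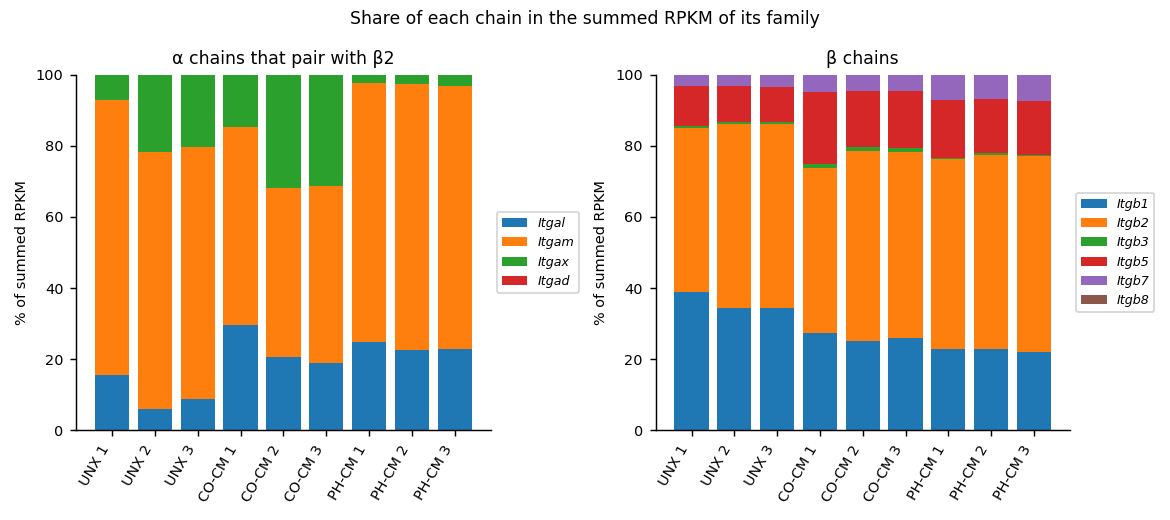
Share of each chain (percent of the summed RPKM, vertical axis) among the α chains that pair with β2 and among the β chains, as stacked bars for each of the 9 libraries. The Itgax share falls to between 2.48% and 3.27% in the PH-CM libraries, and the Itgb1 share is lower in both media than in UNX.

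Of the 5 β chains tested, 4 were higher and 1 lower in PH-CM than in UNX, 4 higher and 0 lower in CO-CM, and 1 higher and 1 lower in PH-CM against CO-CM, beside 31.3% and 31.7%, 28% and 28.9%, and 12.2% and 15% of all genes. Itgb1, the partner of most matrix-binding α chains, fell from 994, 971 and 948 CPM in UNX to 775, 787 and 756 in PH-CM (-0.33 ± 0.04, FDR 5.52e-05). In CO-CM it had 842, 832 and 852 CPM, also below every UNX library, at a fold change under 1.2 (-0.21 ± 0.04, FDR 0.00173). Scaling by library size alone brought it past that fold (-0.28, FDR 0.000364). Its share of the β chain RPKM was 35.9 ± 2.71% in UNX, 26.1 ± 1.12% in CO-CM and 22.6 ± 0.524% in PH-CM.

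Itgb2, the β chain that leukocyte integrins share, had 879, 1098 and 1074 CPM in UNX, 1069, 1328 and 1277 in CO-CM and 1348, 1412 and 1419 in PH-CM. PH-CM lay above both other groups (0.45 ± 0.10 against UNX, FDR 0.00157), and CO-CM overlapped UNX (0.27 ± 0.10, FDR 0.0302). The CO-CM call was lost without UNX replicate 1 (0.16, FDR 0.119), CO-CM replicate 2 or 3, or PH-CM replicate 1, the last through the fold change. It was also lost with library size alone (0.20), without the low-count filter (0.23), with another filter (0.24) and in a fit of only these 2 groups (FDR 0.0553). PH-CM against CO-CM was not called (0.19 ± 0.10, FDR 0.159).

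Itgb3, the partner of αv and of the platelet αIIb chain, was highest in CO-CM, with 11.1, 14.3 and 13.0 CPM in UNX, 50.8, 61.2 and 59.1 in CO-CM and 17.0, 18.1 and 18.4 in PH-CM. No groups overlapped. The log2 fold change was 2.15 ± 0.10 (4.45-fold, FDR 3.8e-08) for CO-CM and 0.47 ± 0.10 (FDR 0.00129) for PH-CM against UNX, and -1.68 ± 0.10 (FDR 9.48e-07) for PH-CM against CO-CM. Itgb5, which pairs with αv, rose in both media, with 240, 238 and 229 CPM in UNX, 518, 427 and 430 in CO-CM and 456, 436 and 428 in PH-CM. It was 1.94-fold higher in CO-CM (0.96 ± 0.07, FDR 1.13e-06) and 1.87-fold higher in PH-CM (0.90 ± 0.07, FDR 1.24e-06), and the difference between the media was -0.06 with a 95% interval from -0.20 to 0.08. Itgb7, the partner of α4 and αE, stepped up from UNX (54.5, 60.1 and 64.0 CPM) to CO-CM (102, 104 and 106) to PH-CM (159, 157 and 171), with log2 fold changes against UNX of 0.80 ± 0.06 (FDR 1.16e-06) and 1.45 ± 0.06 (FDR 1.21e-08) and of 0.64 ± 0.06 (FDR 2.29e-05) between the media. Itgb8, the β chain that activates TGF-β with αv, had 0 to 14 reads a library and was not tested.

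Of the 7 adaptors tested, 3 were higher and 2 lower in PH-CM than in UNX, 1 higher and 2 lower in CO-CM, and 3 higher in PH-CM against CO-CM. Their shares against UNX, 42.9% higher and 28.6% lower in PH-CM and 14.3% and 28.6% in CO-CM, stood beside 31.3% and 31.7% and beside 28% and 28.9% of all genes. For PH-CM against CO-CM, 42.9% were higher and 0% lower, beside 12.2% and 15%. Tln1, the talin of blood cells, had 1674, 1749 and 1763 CPM in UNX, 1140, 1277 and 1232 in CO-CM and 1011, 1077 and 1044 in PH-CM. No groups overlapped, with -0.51 ± 0.06 (FDR 1.87e-05) for CO-CM and -0.73 ± 0.06 (FDR 9.51e-07) for PH-CM against UNX. PH-CM against CO-CM stayed under the fold threshold (-0.22 ± 0.06, FDR 0.011) and passed it without CO-CM replicate 1 (-0.265). Fermt3, the kindlin of blood cells, had 374, 379 and 387 CPM in UNX, 347, 374 and 379 in CO-CM and 472, 502 and 513 in PH-CM, and was called only in the PH-CM comparisons (0.38 ± 0.05 against UNX, FDR 5.48e-05, and 0.43 ± 0.05 against CO-CM, FDR 0.000104). Talin and kindlin-3 transcripts therefore changed in opposite directions under PH-CM.

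Fermt2, the widely expressed kindlin-2, was low, with 3.94, 3.42 and 5.08 CPM in UNX, 6.903, 4.73 and 5.62 in CO-CM and 8.12, 7.79 and 8.96 in PH-CM. It was 2-fold higher in PH-CM than in UNX (1.00 ± 0.17, FDR 0.000291), with no overlap. Its calls for CO-CM against UNX (0.47 ± 0.17, FDR 0.0282) and PH-CM against CO-CM (0.53 ± 0.16, FDR 0.028) were each lost in 4 of the 9 fits that left out 1 library, at log2 fold changes between 0.318 and 0.55: without UNX replicate 1 or 2 or CO-CM replicate 1 or 3 for the first, and without CO-CM replicate 2 or 3 or PH-CM replicate 1 or 3 for the second.

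Pxn, which encodes paxillin, had 144, 146 and 143 CPM in UNX, 162, 162 and 156 in CO-CM and 226, 237 and 232 in PH-CM. Its rise under PH-CM was called against UNX (0.68 ± 0.04, FDR 1.04e-07) and against CO-CM (0.54 ± 0.04, FDR 4.37e-06), and the CO-CM value stayed under the fold threshold (0.15 ± 0.04, FDR 0.00639). Vcl, which encodes vinculin, fell in both media, from 61.0, 57.7 and 59.5 CPM in UNX to 43.9, 42.7 and 45.2 in CO-CM (-0.43 ± 0.04, FDR 1.08e-05) and 45.5, 43.1 and 43.6 in PH-CM (-0.43 ± 0.04, FDR 8.76e-06). Between the media the log2 difference was 0.004, with an interval from -0.08 to 0.09. Of the exon bases of Vcl, 25.5% lie in Ap3m1 on the other strand, so its counts leave part of the gene out. Tln2 (2.22 to 3.86 CPM) and Zyx, which encodes zyxin (137 to 177 CPM), were not called in any comparison. Ilk, the integrin-linked kinase scaffold, had only 13 to 40 reads a library and was not tested; 89.7% of its exon bases are shared with Taf10 and Rrp8 on the other strand, so its true level cannot be read from these counts.

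Of the focal adhesion kinases, both fell under PH-CM. Ptk2 (FAK) had 50.0, 45.5 and 47.5 CPM in UNX, 19.8, 17.8 and 20.5 in CO-CM and 25.2, 22.0 and 23.9 in PH-CM, so both media held less than every UNX library by a wide gap. Ptk2 changed by -1.30 ± 0.07 (FDR 1.18e-07) in CO-CM and -1.01 ± 0.07 (FDR 4.58e-07) in PH-CM. PH-CM was called higher than CO-CM (0.29 ± 0.07, FDR 0.00933), a call lost to the fold threshold without CO-CM replicate 2 (0.235) or PH-CM replicate 1 (0.251). Ptk2b (PYK2), the FAK relative that predominates in macrophages, had 290, 242 and 262 CPM in UNX, 239, 234 and 236 in CO-CM and 181, 182 and 171 in PH-CM. It was called lower in PH-CM than in UNX (-0.57 ± 0.06, FDR 1.34e-05) and than in CO-CM (-0.41 ± 0.06, FDR 0.000589), while CO-CM against UNX stayed under the fold threshold (-0.16 ± 0.06, FDR 0.0398).

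Cass4, a Cas-family scaffold, was the member with the largest decrease. It had 527, 872 and 824 reads in UNX (8.13, 11.6 and 9.59 CPM), 24, 64 and 57 in CO-CM (0.351, 0.958 and 0.801 CPM) and 386, 753 and 729 in PH-CM (5.74, 12.1 and 11.5 CPM). All CO-CM libraries lay below 1 CPM, and the UNX and PH-CM libraries overlapped. On the log2 scale the change was -3.79 ± 0.36 (13.9-fold lower, FDR 5.89e-06) for CO-CM and 0.00 ± 0.28 (FDR 0.992) for PH-CM against UNX, and 3.80 ± 0.36 (FDR 2.47e-05) for PH-CM against CO-CM. The interval of the PH-CM value, -0.55 to 0.56, leaves room for a change of some size. Of the other Cas proteins, Nedd9 was higher in PH-CM (27.2, 22.5 and 25.7 CPM) than in CO-CM (20.3, 19.0 and 19.3; 0.36 ± 0.07, FDR 0.00344) and overlapped UNX (20.8, 22.7 and 22.2; 0.20 ± 0.07, FDR 0.0322, under the fold threshold, which it passed without PH-CM replicate 2 at 0.271). Bcar1 (p130Cas) was low, at 3.27 ± 0.45 CPM in UNX, 3.30 ± 0.79 in CO-CM and 4.53 ± 0.43 in PH-CM. Its call for PH-CM against UNX (0.47 ± 0.18, FDR 0.0346) was lost without UNX replicate 2 or 3 or PH-CM replicate 1 or 3 (FDR 0.0815 to 0.113), and for PH-CM against CO-CM it was not called (0.46 ± 0.18, FDR 0.071) but was with the replicate block (0.47, FDR 0.0101).

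**Figure D4:**
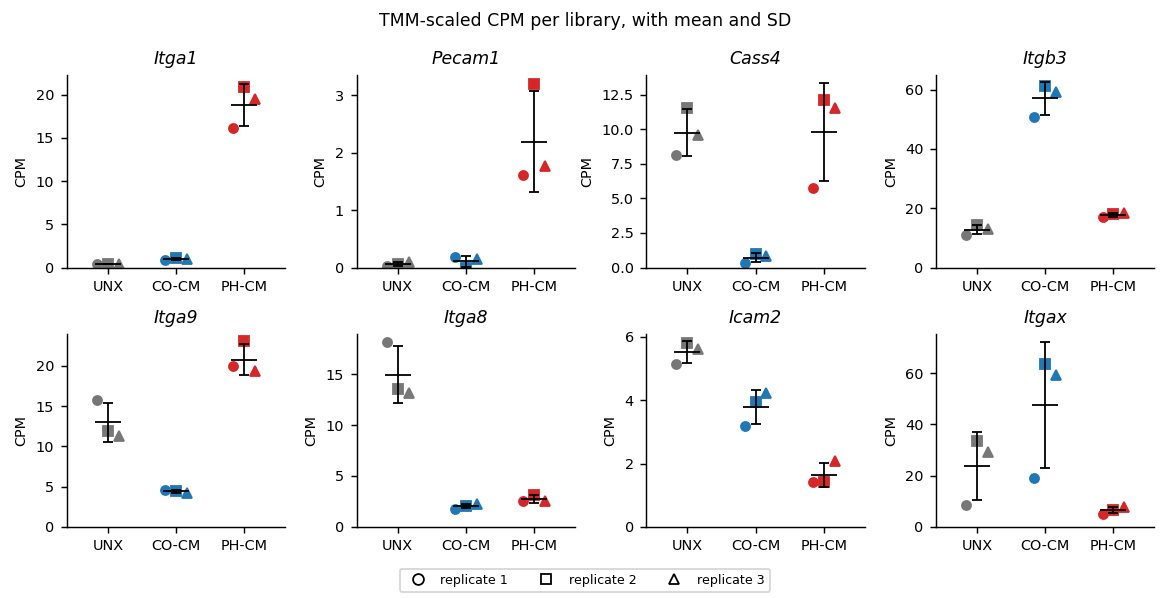
TMM-scaled CPM (vertical axes, from 0) of 8 members in each library by group, with symbols for the replicates and the mean with its SD. PH-CM libraries stand above the other 6 for Itga1, Pecam1 and Itga9, CO-CM libraries above the others for Itgb3 and below them for Cass4, and replicate 1 is low for Itgax in every group.

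Among the adhesion molecules, Pecam1 changed most. Pecam1, a homophilic adhesion protein of leukocyte and endothelial junctions, had 2, 4 and 8 reads in UNX, 12, 0 and 10 in CO-CM and 108, 199 and 112 in PH-CM, which is 1.61, 3.20 and 1.77 CPM in PH-CM. Pecam1 rose by a log2 fold change of 5.11 ± 0.58 (FDR 1.69e-05) against UNX and 4.34 ± 0.54 (FDR 0.00015) against CO-CM, with wide intervals (3.97 to 6.25 and 3.28 to 5.40) because the other groups held 14 and 22 reads in all. Of the 7 endothelial markers checked, 4 were under 1 CPM in all 9 libraries, with Cldn5 at 0 in each. The list summed to 142 to 182 CPM in UNX, 408 to 480 in CO-CM and 311 to 330 in PH-CM, nearly all from Vwf and Kdr. The sum followed Vwf, at 98.3 to 148 CPM in UNX, 391 to 464 in CO-CM and 251 to 275 in PH-CM. Kdr was lowest in CO-CM and highest in PH-CM, at 31.9 to 42.5 CPM in UNX, 16.3 to 20.4 in CO-CM and 54.2 to 63.2 in PH-CM. Cdh5, an endothelial junction protein, was at 0.931 to 1.51 CPM in UNX, 0.120 to 0.225 in CO-CM and 0.610 to 1.14 in PH-CM. Fibroblast markers, Col1a1 and Col1a2 foremost, summed to 197 to 249 CPM in UNX, 267 to 318 in CO-CM and 249 to 335 in PH-CM. The part of either cell type in the member values was not tested.

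Icam1, a ligand of LFA-1 and Mac-1, rose in both media, from 41.3, 30.3 and 32.0 CPM in UNX to 43.5, 56.4 and 45.5 in CO-CM (0.49 ± 0.13, FDR 0.00521) and 49.8, 56.9 and 55.4 in PH-CM (0.65 ± 0.13, FDR 0.000803), and the media overlapped. Icam2, another LFA-1 ligand, went the other way and stepwise, with 5.15, 5.82 and 5.60 CPM in UNX, 3.19, 3.95 and 4.22 in CO-CM and 1.41, 1.42 and 2.09 in PH-CM. No groups overlapped, and it was called lower in CO-CM (-0.55 ± 0.16, FDR 0.0114), in PH-CM (-1.75 ± 0.17, FDR 5.68e-06) and in PH-CM against CO-CM (-1.21 ± 0.17, FDR 0.000387). Against UNX, the receptor chains Itgal and Itgb2 and their ligand Icam1 were thus higher and the ligand Icam2 lower in both media, with the Itgb2 call in CO-CM unstable. Between the media, Icam2 was called, and Itgal (FDR 0.0701 without the block), Itgb2 (FDR 0.159) and Icam1 (FDR 0.351) were not.

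Vcam1, the ligand of α4 integrins, was near 1 CPM, with 52, 42 and 102 reads in UNX, 43, 44 and 54 in CO-CM and 109, 81 and 89 in PH-CM. It was called higher in PH-CM than in CO-CM (1.08 ± 0.26, FDR 0.00803) and than in UNX (0.76 ± 0.25, FDR 0.0185), the latter not without UNX replicate 2 (0.52, FDR 0.0601) or PH-CM replicate 1 (0.66, FDR 0.0632). Selplg (PSGL-1), the ligand of P-selectin, was higher in CO-CM (229, 291 and 277 CPM) than in UNX (158, 195 and 184; 0.57 ± 0.10, FDR 0.000606) and PH-CM (179, 209 and 204; -0.42 ± 0.10 for PH-CM against CO-CM, FDR 0.00824). Alcam, a homophilic molecule that also binds CD6, fell in both media, from 540, 619 and 614 in UNX to 422, 476 and 487 in CO-CM (-0.36 ± 0.07, FDR 0.000962) and 387, 389 and 406 in PH-CM (-0.59 ± 0.07, FDR 2.3e-05). PH-CM against CO-CM stayed under the fold threshold (-0.23 ± 0.07, FDR 0.0242), which it passed without CO-CM replicate 1 (-0.29). Jaml, a junctional adhesion molecule of leukocytes, had 2, 0 and 2 reads in UNX, 0 in each CO-CM library and 0, 8 and 5 in PH-CM and was not tested.

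The other genes of the pathway were counted from lists of regulators and partners. Of 21 tested genes of integrin activation, 4 were higher and 7 lower in PH-CM, 3 higher and 8 lower in CO-CM, and 3 higher and 4 lower in PH-CM against CO-CM (median log2 fold change -0.03, -0.14 and 0.11). The 19% higher and 33.3% lower in PH-CM stood beside 31.3% and 31.7% of all genes, and the 14.3% and 38.1% in CO-CM beside 28% and 28.9%. For PH-CM against CO-CM, 14.3% higher and 19% lower stood beside 12.2% and 15%. Rasgrp3, an exchange factor for Rap1 and Ras, fell from 178 ± 1.91 CPM in UNX to 27.3 ± 0.201 in PH-CM (log2 fold change -2.71 ± 0.06, FDR 1.14e-09). Sipa1l1, a GTPase-activating protein for Rap, rose from 34.3 ± 1.19 to 96.7 ± 10.4 CPM (1.49 ± 0.08, FDR 4.34e-08). Rapgef3, another exchange factor for Rap1, was low and rose in both media. It had 1.59 ± 0.07 CPM in UNX, 5.16 ± 0.78 in CO-CM (1.69 ± 0.16, FDR 4.94e-06) and 4.81 ± 0.72 in PH-CM (1.59 ± 0.16, FDR 5.93e-06). Dab2, an endocytic adaptor of β integrin tails, fell from 2129 ± 157 CPM in UNX to 364 ± 36.6 in CO-CM (-2.55 ± 0.08, FDR 7.03e-09) and had 799 ± 13.7 in PH-CM.

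Of 44 tested focal adhesion and podosome genes, 11 were higher and 18 lower in PH-CM, 8 and 16 in CO-CM, and 9 and 7 in PH-CM against CO-CM (medians -0.04, -0.06 and 0.02). That is 25% higher and 40.9% lower in PH-CM, beside 31.3% and 31.7% of all genes, and 18.2% and 36.4% in CO-CM, beside 28% and 28.9%. For PH-CM against CO-CM it is 20.5% and 15.9%, beside 12.2% and 15%. Arhgef7, a paxillin-associated exchange factor, fell from 361 ± 39.5 CPM in UNX to 158 ± 5.99 in CO-CM and 142 ± 1.83 in PH-CM (-1.20 ± 0.07 and -1.35 ± 0.07). Of 21 tested Src, Syk and adaptor genes, 5 were higher and 4 lower in PH-CM, 7 and 6 in CO-CM, and 3 and 3 between the media (medians -0.03, 0.05 and 0.06). These 23.8% and 19% in PH-CM and 33.3% and 28.6% in CO-CM were near or below the shares of all genes. Between the media, 14.3% each way stood beside 12.2% and 15%. Syk, the kinase that acts below β2 integrins, rose from 344 ± 22.8 CPM in UNX to 632 ± 28.1 in CO-CM and 778 ± 4.18 in PH-CM (1.18 ± 0.06 for PH-CM against UNX, FDR 3.13e-08), and Fgr, a Src-family kinase of myeloid cells, rose from 1.78 ± 0.41 to 8.10 ± 2.22 and 6.48 ± 1.27 CPM. Lyn (0.60 ± 0.06, FDR 3.62e-05), another such kinase, and Vav3 (0.80 ± 0.07, FDR 8.46e-06), a guanine nucleotide exchange factor, were higher in PH-CM than in CO-CM. For both, CO-CM was also below UNX. Lyn had 196 ± 14.1 CPM in UNX, 110 ± 3.08 in CO-CM and 166 ± 8.80 in PH-CM, and Vav3 had 108 ± 1.64, 60.5 ± 6.15 and 105 ± 2.84. Vav2 went the other way between the media (-0.53 ± 0.06, FDR 9.78e-05), with 28.7 ± 1.04 CPM in UNX, 39.8 ± 3.01 in CO-CM and 27.7 ± 0.45 in PH-CM.

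Of 19 tested genes of leukocyte adhesion and transmigration, 11 were higher and 6 lower in PH-CM, 7 and 7 in CO-CM, and 6 and 3 in PH-CM against CO-CM (medians 0.32, 0.07 and 0.14). That is 57.9% higher and 31.6% lower in PH-CM, beside 31.3% and 31.7% of all genes, and 36.8% each way in CO-CM, beside 28% and 28.9%. For PH-CM against CO-CM it is 31.6% and 15.8%, beside 12.2% and 15%. Selp (P-selectin) was at 0.224 ± 0.0677 CPM in UNX, 0.0887 ± 0.0801 in CO-CM and 3.11 ± 0.718 in PH-CM, and it reached the filter only through PH-CM, so it had to be high there to be tested. The megakaryocyte marker Pf4 was at 149 to 174 CPM in UNX, 107 to 135 in CO-CM and 218 to 269 in PH-CM, with the other 3 markers of that list below 1 CPM in all libraries, and its part in the Selp and Pecam1 values was not tested. Spn (CD43), a large sialylated surface protein, fell from 35.4 ± 1.07 CPM in UNX to 16.3 ± 1.13 in CO-CM (-1.11 ± 0.09, FDR 1.83e-06) and 7.65 ± 1.02 in PH-CM (-2.21 ± 0.10, FDR 1.3e-08). Cd9, a tetraspanin that associates with integrins, was lower in PH-CM (259 ± 11.5 CPM) than in CO-CM (593 ± 92.9; -1.19 ± 0.12, FDR 3.47e-05). The remaining integrin chain genes outside the set had 1 gene tested of 6, with no call.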

How the data were processed

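RNA of 9 libraries was sequenced on an Illumina NovaSeq after a NuGen mRNA kit. Per the labels, the authors cleaned reads with AfterQC, ran STAR against GRCm38 and assigned reads to genes with featureCounts 1.6.2; the deposited raw counts carry no normalization. The deposited RPKM values are these counts scaled by exon length and library size, as the authors computed them. For Fermt3 the length they imply is shorter than the GENCODE M21 exons (ratio 0.447). It is also shorter for Itga5 (0.90), Itgb5 (0.946), Ptk2 (0.98) and Itgb7 (0.990). The authors' own tables of fold changes and p-values for the same 3 comparisons were not used. The stated counting options name exons and gene IDs and none for strand or read pairs, so counting was unstranded, with mates counted singly.

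Counts were analysed with edgeR 4.0.16 in R 4.3.3: genes with CPM above 1 in at least 3 libraries, TMM factors, 1 quasi-likelihood fit of the 3 groups, Benjamini-Hochberg FDR over 11950 genes, and a call at FDR 0.05 and fold 1.2. Standard errors were derived from the fold change and its F statistic, and intervals from them by the normal approximation. No fit drops or imputes a library except the fits that leave out 1. The script was tested on simulated data first, with changes recovered in 184 of 195 genes for PH-CM against UNX (94.4%, 11556 genes tested), 180 of 192 for CO-CM against UNX (11547) and 182 of 194 for PH-CM against CO-CM (11687). False calls numbered 10, 9 and 9 in the same order. The simulation changed far fewer genes than were called in these data, so it does not cover that setting. The chi-square per gene between libraries of a group was at least 10.61, so none is a repeat deposit. Intervals and standard errors from the fit rest on 3 cultures a group. Depth was 62017933 to 84314201 reads, which leaves counting error small except for members with few reads.

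Libraries with the same replicate number in the labels correlated in their deviations from group means in all 9 pairs (r 0.276 to 0.484). Those with different numbers did not (-0.376 to 0.042 over 18 pairs), but deviations within a group cancel out, so this range is not independent of the first. The number was taken to pair the libraries, and the reported fit left that pairing out. The methods state that the experiment was repeated as many times as there are replicate numbers, but do not say that a number marks a repeat. The block on it was an alternative, beside the edgeR exact test, DESeq2 1.42.0, 3 other scalings, other low-count filters, fits of only 2 groups, halved counts, other fold thresholds and each library left out in turn. Every member is named; of each gene list, at most the 3 called genes with the largest change and a mean CPM of at least 1 per comparison could be named. The members and lists were chosen with earlier results of these data known. Coordinates and exon overlaps come from GENCODE M21 (GRCm38), start regions from RefSeq (GRCm38.p6). The values of 1 gene of the leukocyte adhesion list are not reported here.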

Additional observations from a re-analysis of the deposited data

How the results depend on the processing

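With a fold change of at least 2, the members called were 4 higher and 5 lower for PH-CM against UNX (8.22% and 9.8% of all genes). They were 3 and 4 for CO-CM against UNX (6% and 7.85%), and 5 and 3 for PH-CM against CO-CM (2.81% and 2.31%). Under all other alternatives the counts stayed within 1.5 times those reported. Over 19 alternatives, the other fold thresholds not among them, 18 of 99 member comparisons changed their call at least once, as 35 lost and 33 gained calls among 1881 values, and no called value turned its direction. The replicate block gained the calls named for Itga6, Itgax, Itgal and Bcar1 and changed no other member's call. Scaling moved the split of all called genes: for CO-CM against UNX, 3892 genes were higher and 3015 lower with upper-quartile factors, 2826 and 3999 when scaled by library size, beside 3351 and 3455 as reported, with the median of all genes shifted by 0.066 and -0.07. Of the list genes named, none changed its call for the values given.

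Members under 1 CPM rest on few reads, mates were counted singly, and Itgam, Ilk, Vcl and Cass4 share over 20% of their exon bases with other genes. For the shares, a difference of group means counted as moved when it shifted by more than the larger group SD. Leaving out 1 of 3 libraries of a group cannot shift it that far, so those fits do not test the shares. The unshared exon length, applied only to the shares of Itgal, Itgam, Itgax and Itgad, moved 7 values by more than that SD, which is most of them. The Itgam share in CO-CM minus UNX, for example, went from -22.4 to -12.95 percentage points.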
